A study of Oryza sativa with 8 samples.

Results

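The 7 genes described here are the Bowman-Birk trypsin inhibitor cluster near the start of rice chromosome 1. They were chosen by locus identifier, from LOC_Os01g03310 to LOC_Os01g03390, and all 7 were found among the 55986 gene models of the count tables. Stems of a pair of rice lines were profiled by strand-specific sequencing of total RNA depleted of ribosomal RNA. The lines were SM92, labelled tolerant to the yellow stem borer, and SM, labelled susceptible. The borer is a moth pest whose caterpillars tunnel through rice stems, and larvae were placed by hand on tillers of field-grown plants at booting, when the panicle is still inside the leaf sheath. Stem was taken 72 hours later, with uninfested plants of the same line sampled at the matching time. The labels list 4 groups of 2 samples, which are infested SM92, uninfested SM92, infested SM and uninfested SM.

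Bowman-Birk inhibitors are small, cysteine-rich proteins of cereals and legumes that block serine proteases such as trypsin and chymotrypsin. They act on the digestive enzymes of insects, and in rice such genes are known to respond to wounding and to jasmonate, the hormone of the wound response. Many plant genomes carry them as rows of neighbouring copies. The role of each single copy is not annotated in the sources used here, so the members are described by locus. The cluster's name came with the list of loci and was not checked against sequence. The stem label was not checked against marker genes either, because the deposited identifiers carry no gene names.

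The count table of each line is named in the descriptions of that line's 4 samples, so every count column could be given its line. Nothing tied a column to the infested or the uninfested plants. The comparison made is therefore SM92 against SM over all libraries of each line, infested and uninfested together in equal number per the labels, and no response to the larvae was computed. The libraries are called A to D within each line, as names only, and library A of SM92 has no tie to library A of SM. They held 50540724 to 53268945 counted fragments in SM92 and 53628824 to 57603629 in SM.

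Some libraries were nearly the same. Over genes with at least 100 fragments in a pair of libraries, the mean chi-square per gene, which counting noise alone would put near its 1 degree of freedom, was 1.99 for SM92 libraries A and B, 1.70 for SM92 libraries C and D and 3.47 for SM libraries C and D. It was 112 for SM libraries A and B and at least 299.9 for every other pair within a line. The 3 near-identical pairs thus differed by little more than counting noise, and the labels do not say whether the samples came from separate plants. Results are given over 8 libraries and again with each such pair joined into 1 sample, which leaves 2 samples of SM92 and 3 of SM. The infestation state of each joined sample is unknown, so the states need not be balanced between the lines in that fit. The same holds for fits that leave libraries out. The p-values, standard errors, intervals and SDs over 8 libraries treat the near-identical libraries as separate samples.

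The cluster spans 28.3 kb of chromosome 1, from base 1338229 to base 1366503 of MSU release 7 of the rice gene models. All 7 members lie on the minus strand and none of them shares a base with another gene model. Their spans, introns included, run from 788 to 1863 bases. In order along the chromosome, LOC_Os01g03310 lies at 1338229 to 1339139, LOC_Os01g03320 at 1341319 to 1342277 and LOC_Os01g03330 at 1344557 to 1346419. LOC_Os01g03340 lies at 1347567 to 1348786 and LOC_Os01g03360 at 1353629 to 1354802. LOC_Os01g03380 lies at 1363516 to 1364303 and LOC_Os01g03390 at 1365508 to 1366503. The gaps between consecutive members run from 1147 to 8713 bases.

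Within this row of copies LOC_Os01g03390, LOC_Os01g03340 and LOC_Os01g03360 were abundant in both lines and the other 4 members were low. Of these 4, LOC_Os01g03330 had the highest mean over both lines, but not in SM92 alone when taken per kb. Levels are compared between genes as TMM-scaled counts per 1000000 fragments (CPM) per kilobase of gene span. Averaged over the 8 libraries, the level was 80.7 CPM per kb for LOC_Os01g03390, 46.7 for LOC_Os01g03340 and 41.6 for LOC_Os01g03360. The next member, LOC_Os01g03330, had 1.05 CPM per kb. The lowest were LOC_Os01g03380 with 0.165, LOC_Os01g03310 with 0.146 and LOC_Os01g03320 with 0.0718 CPM per kb. By this measure LOC_Os01g03390 lay above 98.95% of all gene models, LOC_Os01g03340 above 97.95%, LOC_Os01g03360 above 97.68% and LOC_Os01g03330 above 67.6%. Among the genes with enough counts to be tested between the lines, these shares were 97.6%, 95.4%, 94.8% and 27.2%, in the same order of members. These ranks rest on the mean over libraries. By CPM in single libraries, LOC_Os01g03360 stood at or above 80.3% and 80.4% of gene models in SM92 libraries C and D. In SM libraries C and D it stood at or above 82.9% and 84.5%. In libraries A and B of either line these shares were 94.3% to 96.4%.

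**Figure D1:**
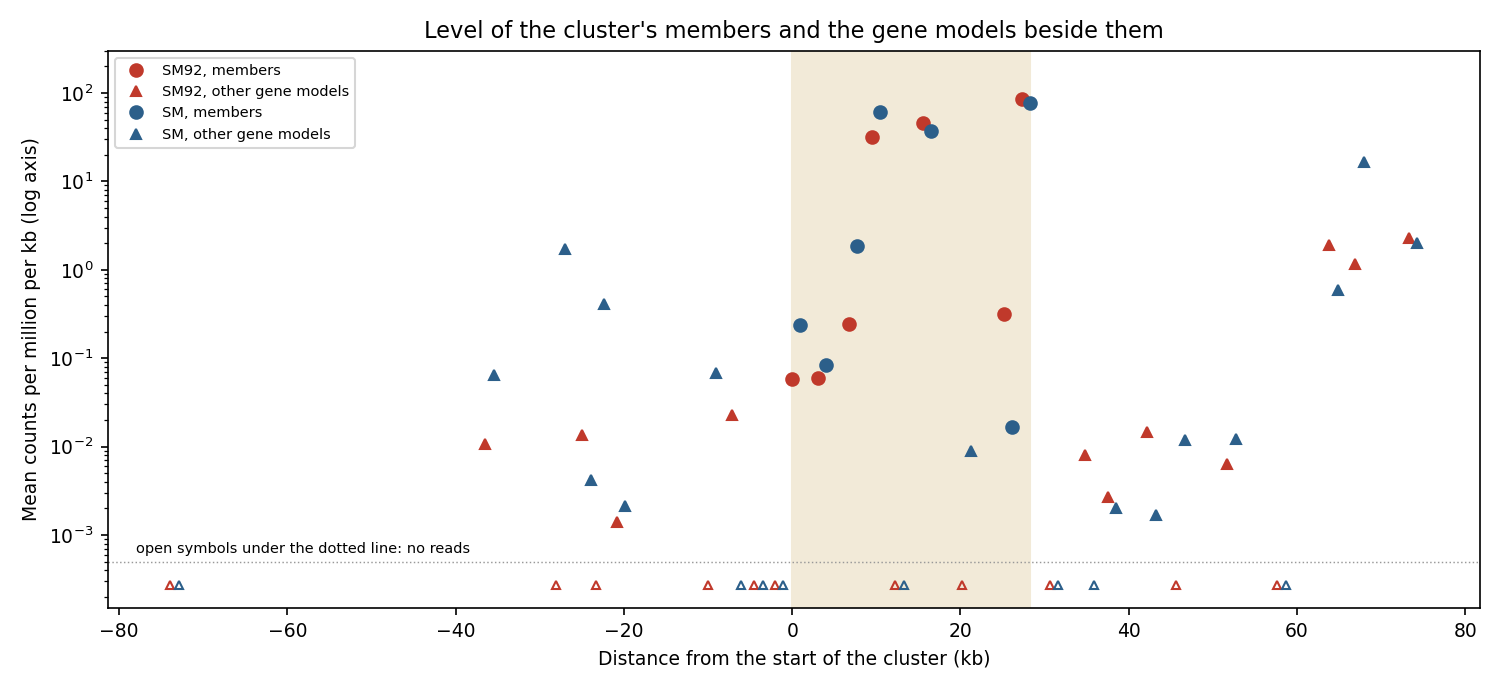
Mean level per line, in TMM-scaled CPM per kb on a log axis, of the 7 members (circles) and the 22 gene models between and beside them (triangles), against distance in kb from the start of the cluster, which is shaded. SM92 (red) is drawn slightly left and SM (blue) slightly right of each gene's middle, and open symbols mark genes with no reads in that line. The 3 abundant members stand near the middle and the far end of the cluster, and most gene models beside the cluster have few or no reads.

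Most gene models around the cluster had few reads. The 2 gene models that lie between members, LOC_Os01g03350 and LOC_Os01g03370, had no read in any library and 10 reads over all 8 libraries, in that order. Of the 10 gene models before the cluster, 9 stayed under 20 counts in every library. The tenth, LOC_Os01g03230, had no read in SM92 and a mean of 1.70 CPM per kb in SM. That mean came almost wholly from SM libraries A and B, with counts of 233, 444, 3 and 5 in SM libraries A to D. With near-identical libraries joined this gene was tested and not called (edgeR adjusted p = 0.123). Of the 10 after the cluster, 7 stayed under 20 counts. The other 3 had a higher mean level over the 8 libraries than LOC_Os01g03330, with 8.96 CPM per kb for LOC_Os01g03490, 2.15 for LOC_Os01g03500 and 1.249 for LOC_Os01g03480. Over these 22 gene models, 3 had enough counts to be tested between the lines over 8 libraries. Of those 3, LOC_Os01g03480 was higher in SM92, with a log2 fold change of 1.68 (edgeR adjusted p = 0.00514, and 0.0911 with near-identical libraries joined). LOC_Os01g03490 was lower in SM92, with a log2 fold change of -3.85 (edgeR adjusted p = 2.18e-05, and 0.00769 with near-identical libraries joined). The third, LOC_Os01g03500, did not pass the test (adjusted p = 0.379).

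The order of the members by level per kb was not the same in both lines. In SM92, LOC_Os01g03390 averaged 84.6 ± 27.3 CPM per kb, LOC_Os01g03360 45.8 ± 41.3 and LOC_Os01g03340 32.0 ± 1.48 (SD, n = 4 libraries). In SM, LOC_Os01g03390 averaged 76.8 ± 19.1 CPM per kb, LOC_Os01g03340 61.4 ± 21.9 and LOC_Os01g03360 37.3 ± 24.8 (SD, n = 4 libraries). In either line, neighbours in this order of 3 levels differed by less than the larger of their SDs. Among the low members, LOC_Os01g03380 averaged 0.314 ± 0.146 and LOC_Os01g03330 0.241 ± 0.0346 CPM per kb in SM92. By CPM, not divided by length, this order turned in SM92, with 0.448 for LOC_Os01g03330 and 0.247 for LOC_Os01g03380. In SM these 2 members stood far apart, with 0.0168 ± 0.0214 CPM per kb for LOC_Os01g03380 and 1.86 ± 0.234 for LOC_Os01g03330.

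Between the lines, LOC_Os01g03330 showed the firmest difference of the cluster. It was 7.7-fold lower in SM92 than in SM. In bulk stem, fewer cells that express a gene and less RNA per cell cannot be told apart. The counts were 25, 24, 16 and 23 in SM92 libraries A to D, against 218, 228, 181 and 181 in SM libraries A to D. On the CPM scale these were 0.475, 0.448, 0.359 and 0.511 in SM92, against 3.83, 3.84, 2.998 and 3.19 in SM. The lines did not overlap, and the highest SM92 library stood well below the lowest SM library. Within a line the highest library was only 1.42 times the lowest in SM92 and 1.28 times in SM, so this member varied little inside either line. The log2 fold change was -2.94 with a standard error of 0.21 and a 95% interval from -3.42 to -2.47 (edgeR quasi-likelihood test, Benjamini-Hochberg adjusted p = 3.64e-05, lower in 4 of 4 SM92 libraries). With near-identical libraries joined it was -2.99, with a wider 95% interval from -3.87 to -2.1 (edgeR adjusted p = 0.0130). Of the 24892 genes tested over 8 libraries, 1129, or 4.54%, were at least as far lower in SM92.

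LOC_Os01g03340, which lies 1147 bases beyond LOC_Os01g03330 and is far more abundant, was also lower in SM92, by 1.92-fold. Its counts were 2128, 1952, 1745 and 1804 in SM92 libraries A to D, against 6036, 5202, 2959 and 3214 in SM libraries A to D. In CPM these were 40.4, 36.4, 39.2 and 40.0 in SM92, against 106, 87.6, 49.0 and 56.7 in SM. SM92 was nearly level across its libraries, while in SM libraries A and B stood well above C and D, which came nearest to SM92. The lines did not overlap. The log2 fold change was -0.94 with a standard error of 0.24 and a 95% interval from -1.50 to -0.38 (edgeR adjusted p = 0.0178, lower in 4 of 4 SM92 libraries). This call was lost with near-identical libraries joined, where the log2 fold change was -1.06 (edgeR adjusted p = 0.117). The 95% interval there, not adjusted for the number of genes tested, ran from -1.9 to -0.226. It was also lost without SM92 library B (adjusted p = 0.0506), without SM92 libraries A and B (adjusted p = 0.117) and without SM92 libraries C and D (adjusted p = 0.0949).

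Since the 2 genes are read in the same libraries, their ratio does not depend on how libraries are scaled. The count of LOC_Os01g03330 was 1.17%, 1.23%, 0.917% and 1.27% of that of LOC_Os01g03340 in SM92 libraries A to D, against 3.61%, 4.38%, 6.12% and 5.63% in SM libraries A to D. The ratio was lower in every SM92 library than in any SM library. This ratio was chosen after the values were seen and carries no test.

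**Figure D2:**
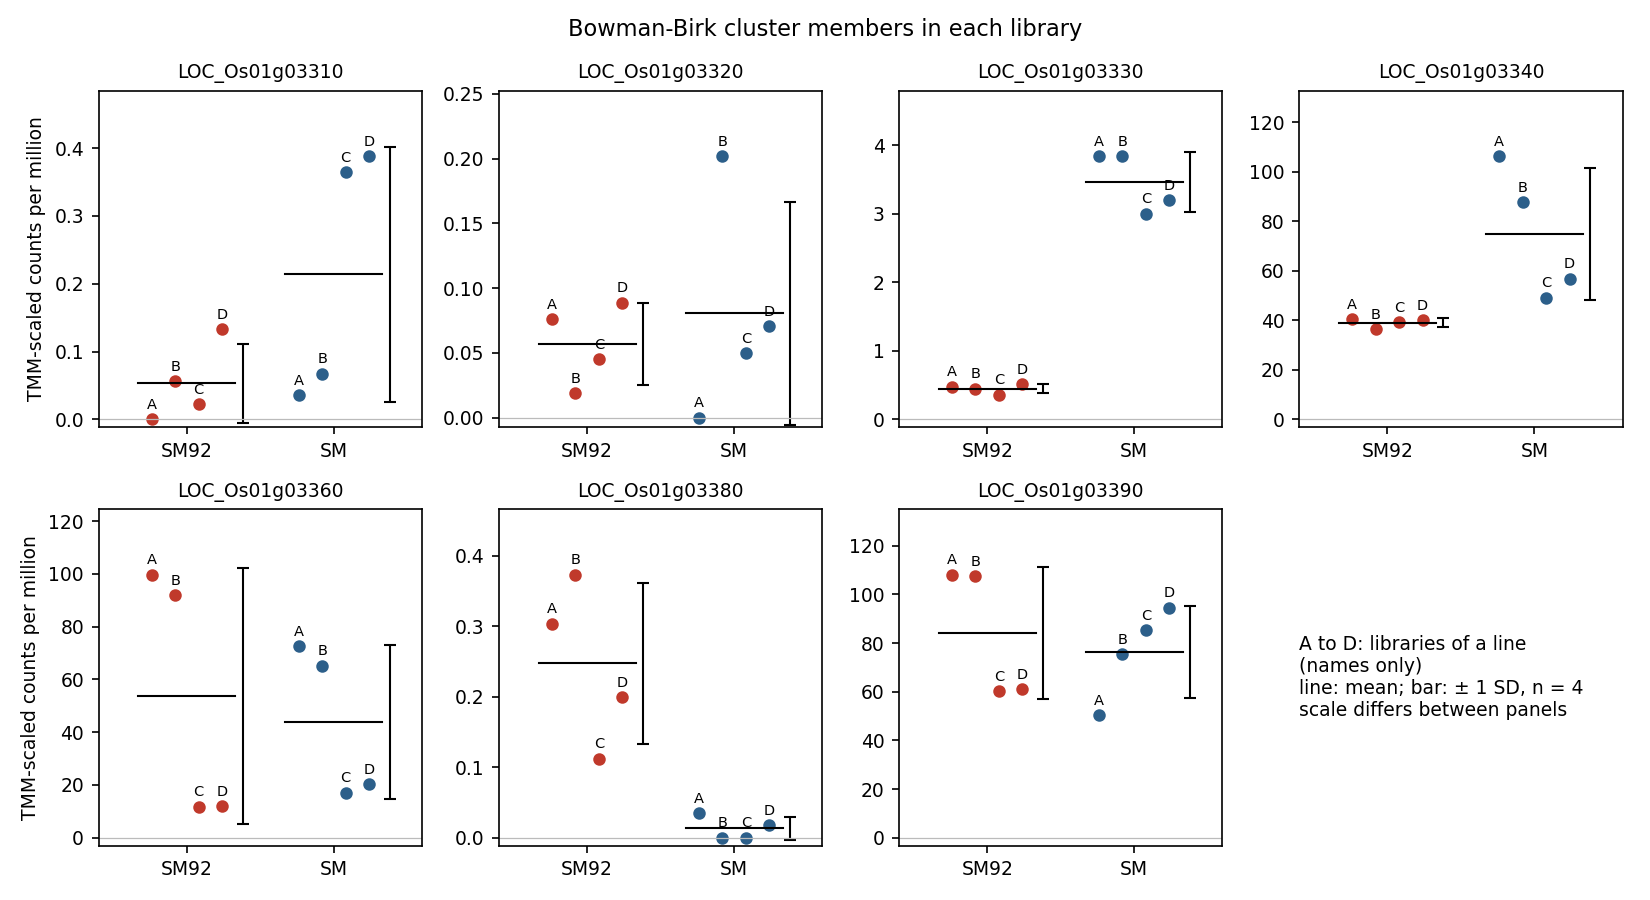
TMM-scaled CPM of each member in every library, SM92 (red) left of SM (blue), with the mean as a line and a bar of ± 1 SD (n = 4 libraries) and a separate scale for each panel. LOC_Os01g03330, LOC_Os01g03340 and LOC_Os01g03380 do not overlap between the lines, while LOC_Os01g03360 spreads from 11.8 to 99.7 within SM92 alone.

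LOC_Os01g03360 differed more between libraries of one line than between the lines. Its counts were 5250, 4921, 525 and 539 in SM92 libraries A to D, against 4122, 3873, 1030 and 1154 in SM libraries A to D. In CPM these were 99.7, 91.8, 11.8 and 11.96 in SM92, against 72.5, 65.2, 17.1 and 20.4 in SM. In each line a pair of libraries was high and the other pair low, and the lines overlapped. The highest library was 8.45 times the lowest in SM92 and 4.25 times in SM. The mean was 53.8 ± 48.5 CPM in SM92 and 43.8 ± 29.1 CPM in SM (SD, n = 4 libraries). The log2 fold change between the lines was 0.30, with a 95% interval from -1.64 to 2.24 (edgeR adjusted p = 0.810). With this spread, the interval does not exclude a difference of several fold in either direction. Which of these libraries came from infested stems cannot be said from the labels.

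LOC_Os01g03390, the most abundant member, did not separate the lines either. Its counts were 5693, 5761, 2678 and 2755 in SM92 libraries A to D, against 2870, 4477, 5157 and 5360 in SM libraries A to D. In CPM these were 108, 107, 60.2 and 61.2 in SM92, against 50.5, 75.4, 85.4 and 94.5 in SM. In SM92 the libraries high for this member, A and B, were those high for LOC_Os01g03360, whereas in SM libraries A and B were high for LOC_Os01g03360 and low for this member. The mean was 84.2 ± 27.2 CPM in SM92 and 76.5 ± 19.0 CPM in SM (SD, n = 4 libraries). The log2 fold change was 0.14, with a 95% interval from -0.50 to 0.77 (edgeR adjusted p = 0.725).

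The ratio of these members within a library does not depend on scaling. The count of LOC_Os01g03360 was 0.922, 0.854, 0.196 and 0.196 times that of LOC_Os01g03390 in SM92 libraries A to D, against 1.44, 0.865, 0.1997 and 0.215 times in SM libraries A to D. In both lines libraries A and B had the high ratios and C and D the low ones. SM library A was the only library of the 8 in which LOC_Os01g03360 exceeded LOC_Os01g03390. Against LOC_Os01g03340, the count of LOC_Os01g03360 was 2.47, 2.52, 0.301 and 0.299 times in SM92 libraries A to D, against 0.683, 0.745, 0.348 and 0.359 times in SM libraries A to D. Thus LOC_Os01g03360 exceeded LOC_Os01g03340 in 2 of 4 SM92 libraries and in none of the 4 SM libraries, a description chosen after the values were seen.

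**Figure D3:**
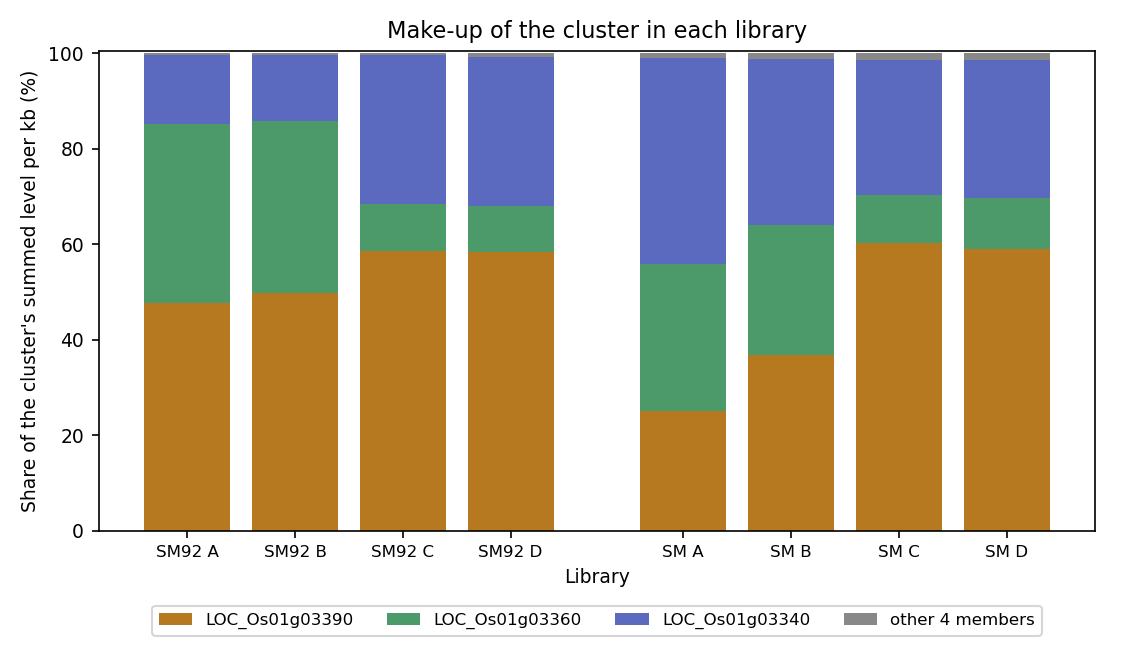
Share of the cluster's summed level per kb, in percent, held by LOC_Os01g03390, LOC_Os01g03360, LOC_Os01g03340 and the other 4 members together in each library, SM92 left and SM right. LOC_Os01g03360 holds 37.4% and 36.1% in SM92 libraries A and B and under 11% in libraries C and D of either line.

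The 3 abundant members made up 99.3% to 99.7% of the cluster's summed level per kb in SM92 and 98.6% to 98.9% in SM. LOC_Os01g03390 alone held 47.8% to 58.7% in SM92 and 25.1% to 60.2% in SM. The share of LOC_Os01g03340 was 14.6%, 13.8%, 31.2% and 31.2% in SM92 libraries A to D, against 43.2%, 34.96%, 28.2% and 28.9% in SM libraries A to D. In SM libraries C and D the make-up was close to that of SM92 libraries C and D, while libraries A and B of the 2 lines differed in which member came next to or above LOC_Os01g03390. The CPM of all 7 members summed to 249, 237, 112 and 114 in SM92 libraries A to D, against 233, 232, 155 and 175 in SM libraries A to D. The sums of the lines overlapped, with a mean of 178 ± 75.2 CPM in SM92 and 199 ± 39.9 CPM in SM (SD, n = 4 libraries).

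LOC_Os01g03380, the member before LOC_Os01g03390 on the chromosome, was read almost only in SM92. Its counts were 16, 20, 5 and 9 in SM92 libraries A to D, against 2, 0, 0 and 1 in SM libraries A to D. The lines did not overlap, and a count of 0 allowed up to 0.0505 CPM in SM library B and 0.0497 CPM in SM library C, taking 3 counts as the limit. Summed over the libraries of a line and scaled, there were 50 counts in SM92 and 3 in SM, a ratio of 19.9 with an exact 95% interval from 6.42 to 99.5. That interval covers counting error only, not the spread between samples. The gene was below the filter on low counts over 8 libraries and was not tested there. Without a filter its log2 fold change was 4.04 (edgeR adjusted p = 0.00640), and with near-identical libraries joined, where it passed the filter, it was 4.08 (edgeR adjusted p = 0.0671). It passed that filter through the line in which it is high, so a difference among genes of this kind is built in.

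LOC_Os01g03310, the first member of the cluster, had its reads mostly in SM. Its counts were 0, 3, 1 and 6 in SM92 libraries A to D, against 2, 4, 22 and 22 in SM libraries A to D. Only SM libraries C and D stood above the rest, and the lines overlapped. The sums were 10 in SM92 and 50 in SM, a scaled ratio of 0.238 with an exact 95% interval from 0.108 to 0.475 for counting error only. Without a filter the log2 fold change was -1.99 (edgeR adjusted p = 0.197). Libraries C and D of SM, where this member was highest, were low for LOC_Os01g03360.

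LOC_Os01g03320 had the fewest reads of the cluster. Its counts were 4, 1, 2 and 4 in SM92 libraries A to D, against 0, 12, 3 and 4 in SM libraries A to D. SM library B held the highest count and SM library A the lowest, and no line stood apart. Without a filter the log2 fold change was -0.50 (edgeR adjusted p = 0.712).

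**Figure D4:**
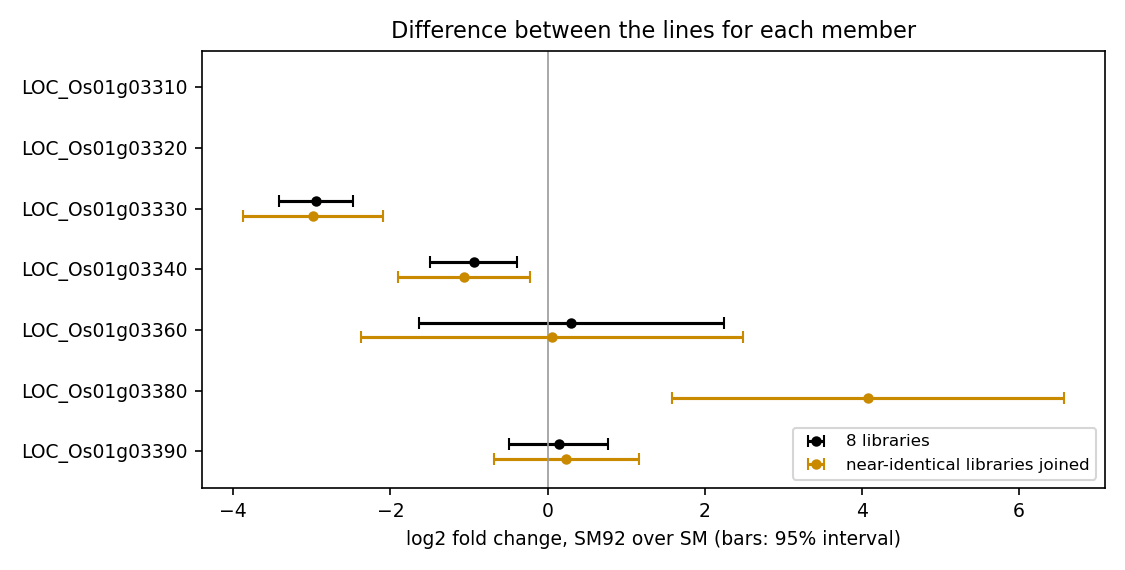
Log2 fold change of SM92 over SM for each member with its 95% interval, over 8 libraries (black) and with near-identical libraries joined (ochre). The intervals are not adjusted for the number of genes tested. LOC_Os01g03330 lies far below 0 in both, and LOC_Os01g03360 and LOC_Os01g03390 span 0. LOC_Os01g03340 lies below 0 with a wider interval once libraries are joined, where it was not called (edgeR adjusted p = 0.117). LOC_Os01g03380 has only a joined point, at 4.08 (1.59 to 6.57), because it was under the filter on low counts over 8 libraries. It was not called there (edgeR adjusted p = 0.0671) and passed that filter through the line in which it is high. LOC_Os01g03310 and LOC_Os01g03320 were under that filter in both fits and have no point.

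Counted together, 4 of the 7 members passed the filter on low counts over 8 libraries, and 2 of these 4 were lower in SM92 and none higher at an adjusted p under 0.05. Over all genes tested by edgeR the lines differed widely: 36% were called, 19.5% lower and 16.5% higher in SM92. Set against that, the members' calls are not unusual in number. With near-identical libraries joined, 1 of the 5 members tested was called, in the lower direction, against 8.71% of all genes tested called and 4.7% called lower. Without a filter, 3 of the 7 members were called, against 20.9% of all gene models with a read. The libraries of the lines did not overlap for 3 of the 7 members, against 27.3% of all gene models with a read. The median log2 fold change was -0.40 over the 4 members tested and 0.00 over all genes tested. With near-identical libraries joined, the members' median had the other sign, at 0.06 over 5 members tested, against 0.00 over all genes tested. The added member was LOC_Os01g03380, at 4.08, which passed that filter through the line in which it is high. The 4 members tested in both fits had joined values of -2.99, -1.06, 0.06 and 0.24. The change of sign therefore came with the added member.

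By an exact permutation test of mean CPM over 8 libraries, two-sided, LOC_Os01g03330, LOC_Os01g03340 and LOC_Os01g03380 each gave p = 0.0286, the smallest that 4 against 4 libraries allow. This value follows from the lack of overlap given above and adds nothing to it. The lines did not overlap for 27.3% of all gene models with a read either. The test also treats near-identical libraries as separate samples. The other members gave exact permutation p-values from 0.2 to 0.771. With near-identical libraries joined, 2 against 3 samples cannot give an exact p below 0.2.

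Among genes outside the cluster, LOC_Os01g61010 and LOC_Os11g26780 had the profiles most like the summed CPM of the 7 members, with a Pearson r on the log2 scale of 0.989 and 0.988 over the 8 libraries, given as a description with no test. LOC_Os01g61010 had 19.5, 20.2, 8.63 and 9.48 CPM in SM92 libraries A to D, against 17.4, 18.9, 13.2 and 13.7 CPM in SM libraries A to D. LOC_Os11g26780 had 19.08, 18.08, 0.3594 and 0.7325 CPM in SM92, against 13.03, 13.01, 2.269 and 2.505 CPM in SM. Its libraries thus differed by far more than the cluster's sum did, since r does not compare the size of changes. Of the 24888 genes compared, 312 reached an r of at least 0.9, and the near-identical pairs leave only 5 distinct samples behind it.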

How the data were processed

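Per the labels' protocols, libraries were made with an Illumina TruSeq stranded total RNA kit with ribosomal depletion for plants. The deposited values are raw fragment counts per gene model, made with featureCounts 2.0.0 on MSU release 7, reversely stranded and over whole genes with introns, per the file headers. The submitters' processing notes name STAR, with no version. The command held no option to count multiply aligned fragments, so fragments that match several near-identical members may be missing from all of them, and each member's level is uncertain to that extent. The position and length columns were used as deposited by the authors.

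Columns were assigned to a line through the table named in the sample descriptions. Infestation state and replicate number were assigned to no column, so the planned infestation contrasts were not run. The main test was edgeR 4.0.16 (quasi-likelihood, robust, TMM scaling, filterByExpr, Benjamini-Hochberg over all genes tested) in R 4.3.3, with line as the only term. Standard errors were taken from the fold change and the F statistic. DESeq2 1.42.0 and limma 3.58.1 (voom) served as alternatives. Counts were simulated for SM92 against SM with 24892 genes, 200 of them changed. True log2 changes of 3 were recovered for 97% of changed genes with 4 and 4 libraries and 79% with 2 and 3 samples. Changes of 1 were recovered for 20% and 2%, and 5.6% and 2.4% of calls were false. Simulated libraries were drawn independently, with the spread fitted over 8 libraries in both runs. The data hold near-identical pairs and many more called genes, so these shares do not give the power of this design. Named genes were the 7 members, the gene models between and beside them and the 2 most alike profiles. The members and lists were chosen with earlier results of these data known. Of the 55986 identifiers, 0 matched the RefSeq gene table of assembly ASM3414082v1, so no names or sequences were attached. Intervals of log2 fold changes include the spread between libraries, while intervals of ratios of summed counts and limits from a count of 0 cover counting error only.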

Additional observations from a re-analysis of the deposited data

How the results depend on the processing

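No paired analysis was possible because no library could be tied to a replicate number. LOC_Os01g03330 was lower in SM92 and past the threshold under all 19 alternatives with an adjusted p, with a log2 fold change from -3.11 to -2.85. LOC_Os01g03340 kept its direction in all 19, from -1.32 to -0.72, and its call in 15 of them. The exact permutation test of CPM gives only an unadjusted p and is not counted here. LOC_Os01g03360 was past the threshold in none of 19, with a sign that turned under limma-voom (-0.068) and when libraries were left out (-1.87 to 1.14 for near-identical pairs, -0.18 to 0.65 for single libraries). LOC_Os01g03390 was past it in none of 19 either, from -0.31 to 0.52 without near-identical pairs and from -0.01 to 0.28 without single libraries. The number of members called, 2 over 8 libraries, was 1 with near-identical libraries joined, 1 to 2 without single libraries and 1 to 3 without near-identical pairs. It was 3 without a filter on low counts, by the DESeq2 Wald test and without SM libraries C and D, each time through LOC_Os01g03380. Without SM92 libraries C and D it was 2, made up of LOC_Os01g03330 and LOC_Os01g03380, with LOC_Os01g03340 lost. Where pairs were left out, LOC_Os01g03380 passed the filter through the line in which it is high. The number of genes called was 8962 over 8 libraries and 2399 with near-identical libraries joined, where fewer samples enter. It ran from 7268 to 9612 without single libraries and from 7000 to 8458 without near-identical pairs. Joining libraries and leaving out pairs were chosen after seeing the data. In these fits the infestation states may be out of balance between the lines. With library totals alone in place of TMM, the median log2 fold change of all genes was -0.16, and 32.1% of calls were higher in SM92, against 45.7% with TMM. Relative to that median, no called member changed direction. Ranked by CPM in place of CPM per kb, LOC_Os01g03310 came 5 and LOC_Os01g03380 came 6 among the members, against 6 and 5 per kb. Depth limits the 3 lowest members, whose counts never passed 22 in a library.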
